A study of Saccharomyces cerevisiae with 30 samples.

Results

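MRH1, YRO2 and HSP30 encode related multi-span proteins of the budding yeast plasma membrane, and their footprints and messages were followed through 24 libraries of fractionated Saccharomyces cerevisiae. The 3 genes, out of 5904 open reading frames in the count tables, were chosen by family together with values of these data: their ratio of SRP72-bound to soluble footprints and their message levels after a heat shift. Both of those measures are therefore described here without a test. Ribosome footprints came from BY4741 cells carrying srp72::SRP72-TAP-HIS3MX, an affinity tag on a subunit of the particle. With no drug before harvest, SRP72-bound, membrane and soluble polysomes had 2 libraries each. With cycloheximide (CHX) added to the culture at 100 µg/mL at harvest, SRP72-bound polysomes, membrane ribosomes, soluble polysomes and soluble ribosomes had 1 library each. Poly(A) RNA was sequenced from SRP72-bound, membrane and soluble fractions of lysates of the same tagged strain that were incubated with puromycin or with CHX, 1 library each. It was also sequenced from membrane and soluble fractions of CY2522, a prt1-1 mutant, and of W303, each after 1 h at 37 °C or during growth at 25 °C, 1 library each. SRP72-bound material was always purified out of the soluble fraction, cultures were in mid-log phase in rich medium, and no untagged control was analysed here.

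The signal recognition particle (SRP) binds a signal sequence or a first transmembrane segment as it leaves the ribosome and carries the ribosome to the endoplasmic reticulum (ER), where membrane proteins are inserted. Mrh1, Yro2 and Hsp30 share the fold of the microbial rhodopsins. Hsp30 is a stress-induced protein known to lower the activity of the plasma membrane proton pump Pma1, Yro2 is known for its induction by acetic acid through the transcription factor Haa1, and Mrh1 is an abundant plasma membrane protein and the paralog of Yro2. CHX holds ribosomes on the message, puromycin releases the nascent chain, and prt1-1 is a temperature-sensitive allele of an initiation factor 3 subunit that blocks translation initiation at high temperature.

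The authors' deposited table places all 3 genes in its class with a transmembrane segment as targeting signal (569 genes) and predicts all 3 to depend on SRP, as it does 292 of the class. Of the other genes of the class, 25 are marked as independent of SRP and 252 have an empty cell. MRH1 (YDR033W, chromosome IV, 508147 to 509109 in the R64 assembly) has 320 codons and its first signal at codon 35. YRO2 (YBR054W, chromosome II, 343101 to 344135) has 344 codons and its first signal also at codon 35. HSP30 (YCR021C, chromosome III, 156109 to 157107) has 332 codons and its first signal at codon 34. In the authors' deposited table the median of the class is 464 codons, with the first signal at codon 45 and quartiles of 16 and 92. The signal therefore sits at nearly the same codon in the 3 proteins, and 285, 309 and 298 codons follow it in MRH1, YRO2 and HSP30.

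The authors' deposited table also gives where footprints on SRP72-bound polysomes step up, which it reads as direct binding of SRP. That position is codon 90 in MRH1, 55 codons after the first signal, and codon 130 in YRO2, 95 codons after it. For both genes the authors' deposited table marks this binding as not unambiguously assigned to a signal, as for 137 genes of the class and unlike 62, so the distance need not be measured from the segment that SRP bound. Over the 199 genes of the class with such a position, the median distance in the authors' deposited table is 73 codons, with quartiles of 60.5 and 100.5. MRH1 lies below the lower quartile and YRO2 between the median and the upper quartile. Both genes are marked as prerecruiting SRP before the signal is exposed, as are 331 of the class, while 52 are marked as not doing so. The cells for HSP30 are empty in the authors' deposited table, which its notes explain as not available, not applicable or not tested.

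Depth was 16.058 to 34.662 M counts for footprints and 3.139 to 34.3 M for RNA. Values below are CPM (counts scaled to library size), adjusted within a set of libraries by the trimmed mean of M values (TMM), so a level is relative to the rest of its own library and not an amount per cell. Nothing in the labels states that replicates were separate cultures. The p-values therefore reflect the spread between these libraries, which may be technical. For single libraries, a 95% exact interval covers counting error only, and a gene was counted as changed where the ratio passed 2-fold.

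Footprints of all 3 genes took a larger share of SRP72-bound and membrane polysome libraries than of soluble ones. MRH1 had 21371 and 19625 CPM in SRP72-bound polysomes, 6017 and 4172 CPM in membrane polysomes and 85.7 and 80.6 CPM in soluble polysomes. YRO2 had 1678 and 1497 CPM in SRP72-bound polysomes, 297 and 246 CPM in membrane polysomes and 5.66 and 6.58 CPM in soluble polysomes. HSP30 had 94.7 and 68.4 CPM in SRP72-bound polysomes, 19.1 and 13.1 CPM in membrane polysomes and 0.270 and 0.499 CPM in soluble polysomes. For each gene both SRP72-bound libraries were above both membrane libraries, and these were above both soluble libraries. Of all 5393 genes tested, 29.7% were called higher in SRP72-bound than in membrane polysomes (adjusted p under 0.05, edgeR). In membrane against soluble polysomes 34.2% were called higher. The share of genes with the full order was not counted, and its SRP72-bound against soluble part was known when the 3 genes were chosen. The soluble value of HSP30 rests on 15 and 20 counts, while its SRP72-bound libraries held 1811 and 926. The authors' deposited table gives no footprint enrichment for HSP30, and none for YRO2 in the CHX culture. It also gives no RNA enrichment at 25 °C for either gene.

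**Figure D1:**
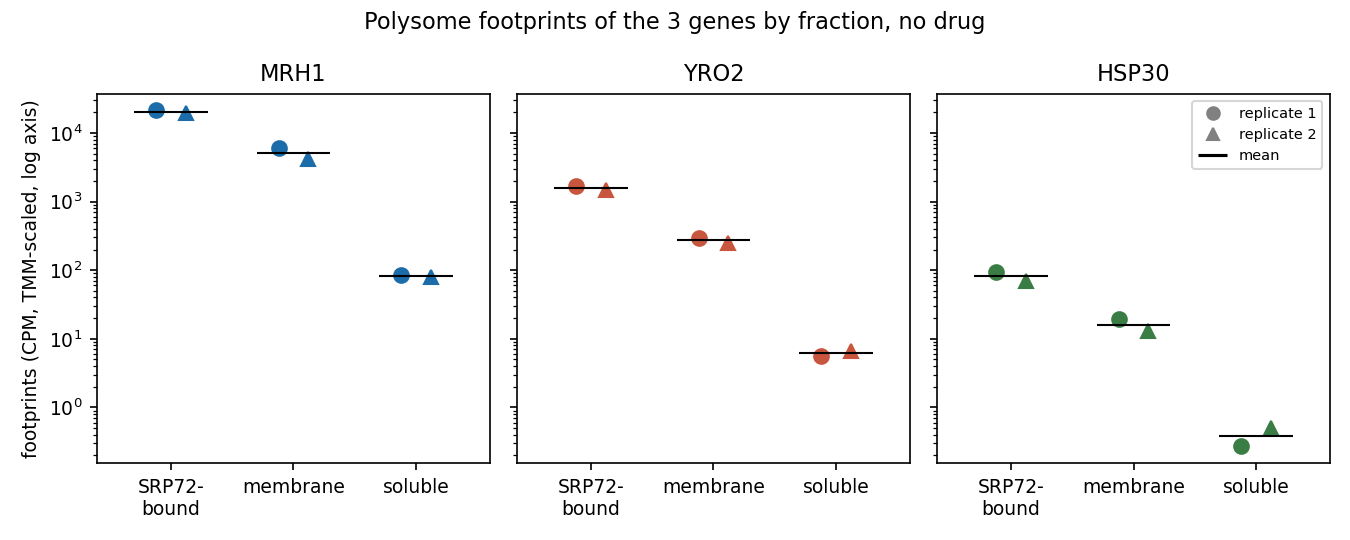
Footprints of MRH1, YRO2 and HSP30 in polysomes without drug, in TMM-scaled CPM on a log axis, for SRP72-bound, membrane and soluble fractions. Symbols are the 2 replicates and bars their mean; MRH1 averages 20498 CPM in SRP72-bound polysomes, 5095 CPM in membrane polysomes and 83.2 CPM in soluble polysomes, and the order of the fractions is the same in all 3 panels.

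Setting membrane against soluble polysomes asks where the proteins were being made. All 3 genes rose on membranes, where 34.2% of the 5393 genes tested were called higher. MRH1 averaged 5095 ± 1305 CPM in membrane polysomes and 83.2 ± 3.65 CPM in soluble ones (SD, n = 2 each), a log2 fold change of 5.94 ± 0.22 (SE; 61.3-fold; adjusted p = 5.12e-08, quasi-likelihood test of edgeR, Benjamini-Hochberg). YRO2 averaged 272 ± 35.7 CPM in membrane polysomes and 6.12 ± 0.653 CPM in soluble ones, a log2 fold change of 5.48 ± 0.16 (adjusted p = 1.63e-08, edgeR). HSP30 averaged 16.1 ± 4.27 CPM in membrane polysomes and 0.384 ± 0.161 CPM in soluble ones, a log2 fold change of 5.45 ± 0.35 (adjusted p = 2.02e-06, edgeR). YRO2 and HSP30 differed by less than their standard errors and MRH1 was above both, and differences between the genes were not tested. They stood at ranks 181, 291 and 301 of all genes for MRH1, YRO2 and HSP30, and above the transmembrane class, whose 541 tested genes had a median log2 fold change of 4.25 and an upper quartile of 5.39. The soluble libraries of this comparison also served the SRP comparison that was known when the genes were chosen. The p-values of the 3 genes are therefore not independent of that choice, and the values are a description. Scaling by TMM over genes the authors class as cytonuclear, in place of all genes, gave 2285 genes called higher and 1004 lower, against 1844 and 1882, and moved the median of all genes to 0.13, against −0.07.

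SRP72-bound polysomes were compared with soluble polysomes, from which they were pulled down, to ask which genes were translated on polysomes held by SRP. As known when the genes were chosen, all 3 stood near the top of the genome in this comparison, in which 39% of genes were called higher. The log2 fold change was 8.02 ± 0.17 for YRO2, 7.95 ± 0.24 for MRH1 and 7.79 ± 0.32 for HSP30, at ranks 6, 9 and 14 of 5393. These are folds of 260.1, 246 and 221, and they differed from each other by less than 1 standard error of HSP30. The median of the transmembrane class was 6.08. With cytonuclear scaling 2713 genes were called higher and 1188 lower, against 2105 and 2098, the median of all genes was 0.28, and MRH1 and YRO2 were at 8.27 and 8.35.

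Levels in SRP72-bound polysomes also exceeded those in membrane polysomes, where 29.7% of genes were called higher. The log2 fold change was 2.01 ± 0.18 for MRH1, 2.55 ± 0.13 for YRO2 and 2.33 ± 0.21 for HSP30, which were at ranks 257, 163 and 193. The class median was 1.27. With cytonuclear scaling 1939 genes were called higher and 1019 lower, against 1604 and 1547. The share of a whole library shows the same without scaling to other libraries. Together the 3 genes took 1.40% and 1.42% of all counts in SRP72-bound polysomes, 0.610% and 0.453% in membrane polysomes and 0.0147% and 0.0137% in soluble polysomes. MRH1 made up nearly all of it, and ranked 7 among all open reading frames in both SRP72-bound libraries, 17 and 22 in membrane libraries and 965 and 1034 in soluble libraries.

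The levels of the 3 genes were far apart in each fraction. Per kilobase of coding sequence, MRH1 had 21352 ± 1286 CPM, YRO2 1538 ± 123 CPM and HSP30 81.9 ± 18.6 CPM in SRP72-bound polysomes (SD, n = 2). In soluble polysomes the same levels were 86.6 ± 3.80 CPM per kilobase for MRH1, 5.93 ± 0.633 for YRO2 and 0.386 ± 0.162 for HSP30. The order MRH1, YRO2, HSP30 held in every fraction, and no neighbours in it overlapped within a fraction.

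Other gene lists gave the setting for these values. On membrane against soluble polysomes, all 27 multi-span plasma membrane transporters rose, at a median log2 fold change of 5.18 beside −0.07 over all genes. Among them the drug pump PDR5 rose by 5.22 ± 0.17 and the phosphate transporter PHO84 by 5.71 ± 0.19 (adjusted p = 3.06e-08 and 2.93e-08, edgeR). All 10 ER lumen folding factors rose, at a median of 5.99. Of 6 genes for the proton pump and its regulators 4 rose and none fell, with PMA1 itself at 7.06 ± 0.26 (adjusted p = 5.41e-08, edgeR). In SRP72-bound against membrane polysomes the log2 fold change of PMA1 was 0.09 ± 0.20 (adjusted p = 0.717, edgeR). In the same comparison 26 of 27 transporters rose, at a median of 1.20, with the amino acid permease BAP2 at 3.47 ± 0.18 and PDR5 at 0.79 ± 0.15.

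Over all genes 34.2% rose and 34.9% fell on membranes against soluble polysomes, and the chaperone, stress and enzyme lists had no larger share in either direction. Of 23 Hsf1-dependent chaperones 7 rose and 6 fell on membranes, at a median of 0.15. Of 18 tested general stress genes 4 rose and 5 fell, at a median of 0.11, and of 11 tested soluble cytosolic enzymes 3 rose and 3 fell. Of 7 Haa1-regulated genes 4 rose and 2 fell, too few to set against these shares. The risers among those included the polyamine transporter TPO3 (4.38 ± 0.13) and the secreted glycoprotein YGP1 (6.40 ± 0.15).

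In footprints from cells given CHX, with 1 library per fraction, the 3 genes were again far higher in SRP72-bound than in soluble polysomes. In SRP72-bound polysomes MRH1 had 10405 CPM, against 63.5 CPM in soluble polysomes. YRO2 had 626 CPM in SRP72-bound polysomes and 3.35 CPM in soluble polysomes, and HSP30 had 26.4 CPM and 0.308 CPM in the same fractions, the last from 8 counts. The log2 ratios were 7.36 for MRH1 (interval 7.29 to 7.43), 7.54 for YRO2 (7.24 to 7.87) and 6.34 for HSP30 (5.43 to 7.64). All 3 genes passed 2-fold, as 24.6% of 5293 genes did, at ranks 34, 17 and 355 for MRH1, YRO2 and HSP30, and the class median was 5.83. Library totals gave 1035 genes past 2-fold upward and 2646 downward, and cytonuclear scaling 1513 and 181, against 1304 and 498, with medians over all genes of −1.0 and 0.29, against −0.04.

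Ribosomes of the CHX culture, which were not sorted into polysomes, gave MRH1 616 CPM in the membrane fraction and 72.6 CPM in the soluble fraction. YRO2 had 35.4 CPM in membrane ribosomes and 3.53 CPM in soluble ribosomes, and HSP30 had 2.21 CPM and 0.596 CPM in the same fractions. The log2 ratios were 3.08 (3.005 to 3.16) for MRH1, 3.32 (2.97 to 3.70) for YRO2 and 1.85 (0.92 to 2.96) for HSP30. All 3 passed 2-fold, as 20.1% of genes did, with a class median of 2.61. HSP30, with 39 counts in membrane ribosomes and 12 in soluble ribosomes, has an interval that reaches below 2-fold. The drug, the ribosome class and the library differ between these values and those of polysomes without drug, and cannot be told apart.

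Messages were followed in lysates incubated with puromycin or with CHX, to ask how much of the location of a message depends on the nascent chain. MRH1 messages stood at 5579 CPM with SRP72, 2238 CPM in the membrane fraction and 1029 CPM in the soluble fraction of the puromycin lysate. In the CHX lysate MRH1 had 17215 CPM with SRP72, 4540 CPM in the membrane fraction and 414 CPM in the soluble fraction. The puromycin lysate thus held less MRH1 message with SRP72 and membranes, and more in the soluble fraction. YRO2 had 402 CPM with SRP72, 132 CPM in the membrane fraction and 85.0 CPM in the soluble fraction of the puromycin lysate, against 1708, 365 and 40.8 CPM in these fractions of the CHX lysate. HSP30 had 43.8 CPM with SRP72, 14.5 CPM in the membrane fraction and 7.75 CPM in the soluble fraction of the puromycin lysate, against 95.5, 12.9 and 3.08 CPM in these fractions of the CHX lysate. The direction was the same for the 3 genes in the SRP72-bound and soluble fractions. In the membrane fraction HSP30 alone was not lower with puromycin, and its counting intervals overlapped under TMM scaling. As a share of the whole library, HSP30 took 0.00169% of membrane counts in the puromycin lysate and 0.00126% in the CHX lysate. With SRP72 its shares were 0.00451% and 0.00510% in these lysates, so the size of its fall there depends on the scaling.

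**Figure D2:**
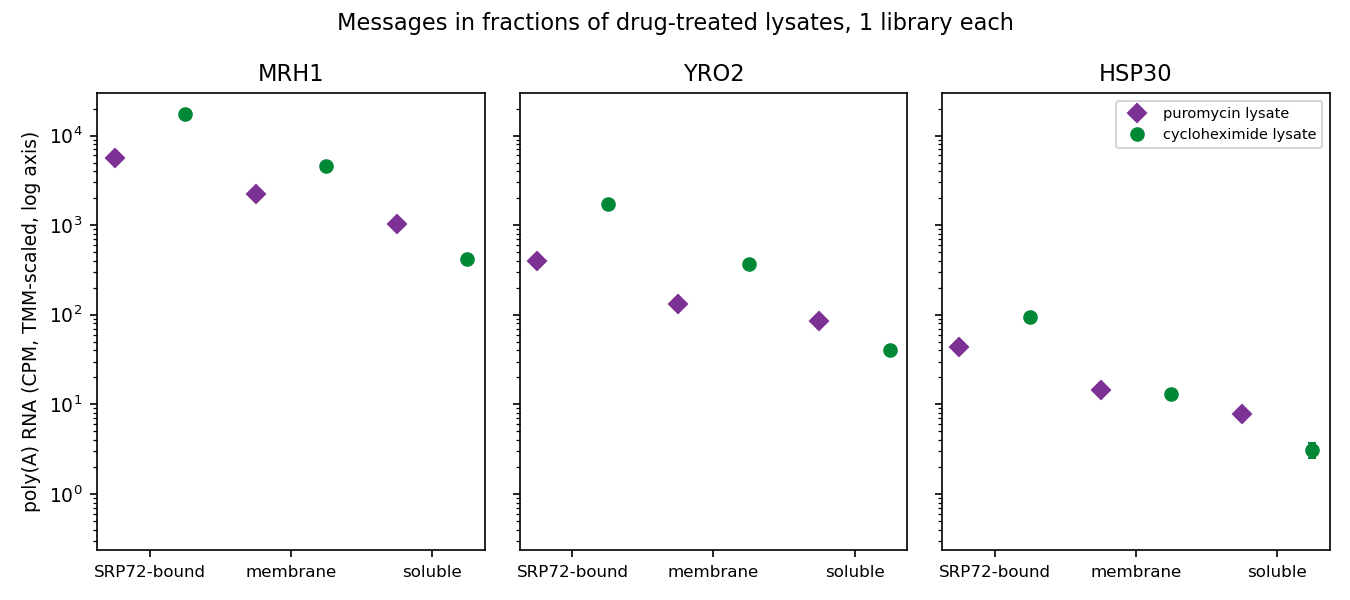
Poly(A) RNA of MRH1, YRO2 and HSP30 in TMM-scaled CPM on a log axis, in SRP72-bound, membrane and soluble fractions of puromycin and CHX lysates. Each point is 1 library, with a 95% counting interval that is mostly smaller than the symbol; MRH1 with SRP72 stands at 5579 CPM in the puromycin lysate and 17215 CPM in the CHX lysate.

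Enrichment with SRP72 over the soluble fraction was smaller in the puromycin lysate for all 3 genes. In the puromycin lysate the log2 ratio was 2.44 (2.42 to 2.46) for MRH1, 2.24 (2.18 to 2.30) for YRO2 and 2.50 (2.29 to 2.71) for HSP30, and 18.9% of 5594 genes passed 2-fold upward. There library totals gave 806 genes past 2-fold upward and 1603 downward, and cytonuclear scaling 1296 and 973, against 1060 and 1203. In the CHX lysate it was 5.38 (5.35 to 5.40) for MRH1, 5.39 (5.31 to 5.47) for YRO2 and 4.95 (4.67 to 5.26) for HSP30, and 22.4% of genes passed 2-fold upward. There library totals gave 878 genes upward and 3353 downward, and cytonuclear scaling 1582 and 711, against 1251 and 1147, with a median over all genes of −1.29 under library totals, against −0.04. The change between lysates was −2.94, −3.15 and −2.45 for MRH1, YRO2 and HSP30, past 2-fold for all 3 as for 25.4% of genes, and the class median was −2.43. Scaling to library totals moved the median change over all genes to 0.91, against −0.07 with TMM, and gave 2546 genes past 2-fold upward and 912 downward, against 368 and 1420. With those totals the change was −1.97, −2.17 and −1.48 for the 3 genes.

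A remainder of SRP72 enrichment stayed in the puromycin lysate. The 3 genes were then 4.73-fold to 5.65-fold higher with SRP72 than in the soluble fraction, and each lay above the upper quartile of the transmembrane class, which was 2.06 on the log2 scale. The interval of HSP30 held that of MRH1 and reached that of YRO2, so its place among the 3 was not resolved, while the interval of YRO2 lay below that of MRH1.

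Membrane enrichment of the messages was 1.12 (1.10 to 1.14) for MRH1, 0.63 (0.57 to 0.70) for YRO2 and 0.90 (0.69 to 1.12) for HSP30 on the log2 scale in the puromycin lysate. Only MRH1 passed 2-fold there, as 7.6% of genes did, and the class median was 0.59. In the CHX lysate the log2 ratio was 3.45 (3.43 to 3.48) for MRH1, 3.16 (3.08 to 3.24) for YRO2 and 2.06 (1.74 to 2.40) for HSP30. All 3 passed 2-fold, as 18.5% of genes did, with a class median of 2.00. Library totals gave 868 genes higher and 548 lower in the CHX lysate, against 1036 and 254, with a median of −0.39 over all genes. The change between lysates was −2.33 for MRH1 and −2.53 for YRO2, at ranks 137 and 98 from the bottom, and −1.16 for HSP30, at rank 877. All 3 were past 2-fold, as 17.5% of genes were, but HSP30 was at −0.88 with library totals. Those totals gave 513 genes past 2-fold upward and 792 downward, against 318 and 978, with a median of 0.25 over all genes, against −0.03. MRH1 and YRO2 lay below the lower quartile of the class (−1.89), and HSP30 above its median of −1.39. The transporters, by comparison, had a median change of −1.44, with 24 of 27 past 2-fold downward, and PMA1 was at −1.84.

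**Figure D3:**
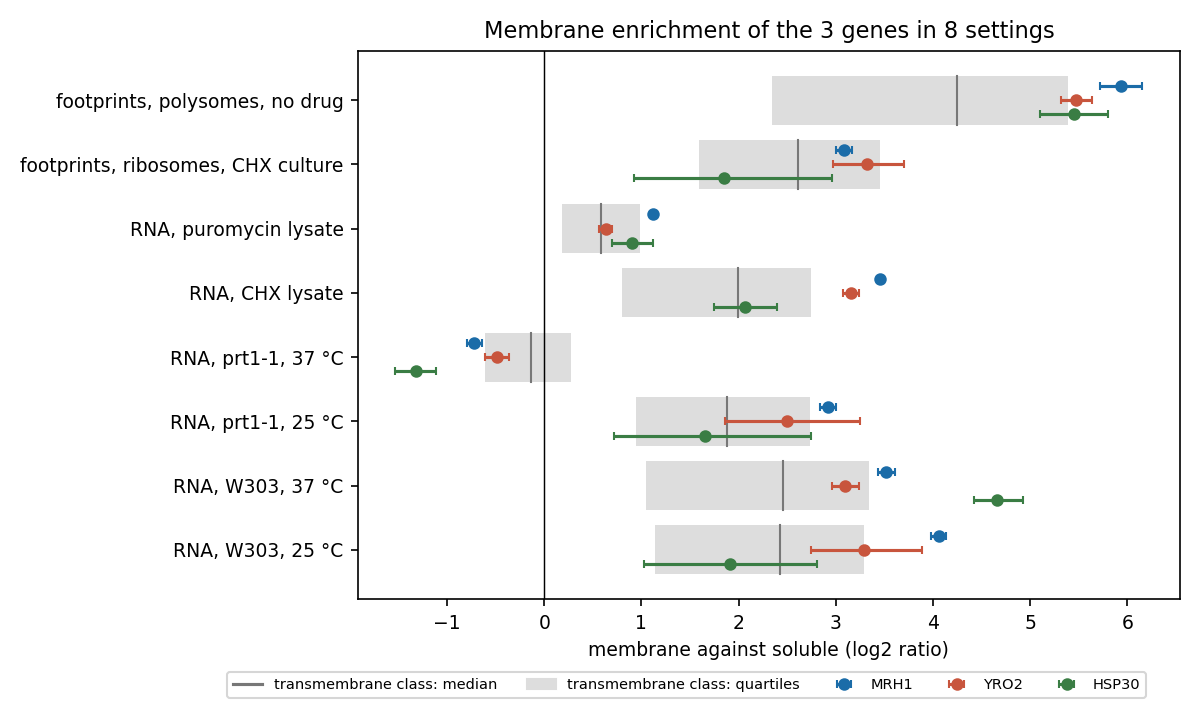
Membrane against soluble log2 ratios of MRH1, YRO2 and HSP30 in 8 settings, with bars of 1 SE for polysomes without drug and 95% counting intervals elsewhere. Grey boxes and lines are the quartiles and median of the transmembrane class; the 3 genes fall below 0 in prt1-1 cells at 37 °C, at −0.72, −0.48 and −1.32, and above 0 in the other 7 settings.

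The heat shift parted the 3 genes. In W303, YRO2 messages had 455 CPM at 37 °C and 38.4 CPM at 25 °C in the membrane fraction, and 53.2 CPM at 37 °C and 3.89 CPM at 25 °C in the soluble fraction. HSP30 had 361 CPM at 37 °C and 9.12 CPM at 25 °C in the membrane fraction, and 14.2 CPM at 37 °C and 2.42 CPM at 25 °C in the soluble fraction. MRH1 had 1376 CPM at 37 °C and 2636 CPM at 25 °C in the membrane fraction, and 120 CPM at 37 °C and 158 CPM at 25 °C in the soluble fraction. YRO2 and HSP30 were thus higher at 37 °C in both fractions, and MRH1 lower in both. The values at 25 °C rest on 101 and 37 counts for YRO2 and 24 and 23 counts for HSP30, in the membrane and soluble fractions.

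**Figure D4:**
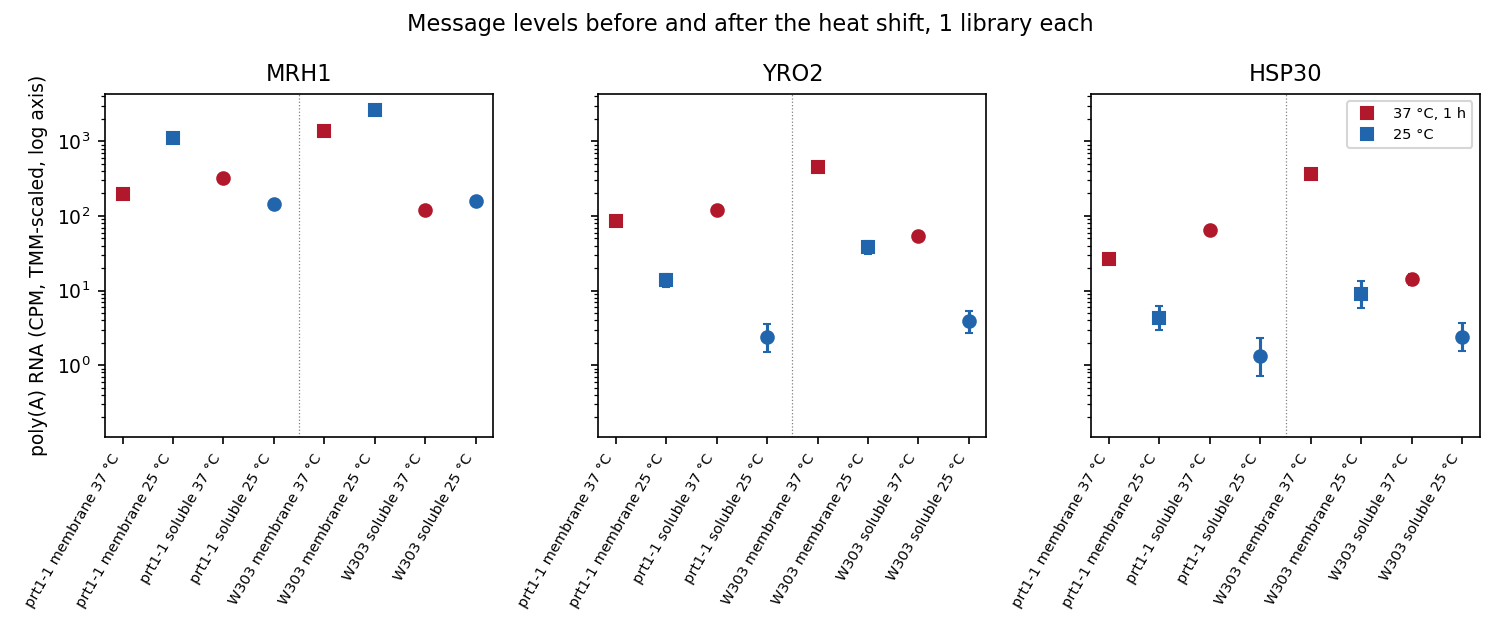
Poly(A) RNA of MRH1, YRO2 and HSP30 in TMM-scaled CPM on a log axis, in membrane (squares) and soluble (circles) fractions of prt1-1 and W303 cells at 37 °C (red) and 25 °C (blue), with 95% counting intervals and 1 library per point. YRO2 and HSP30 are higher at 37 °C in all 4 pairs, while MRH1 is higher at 37 °C only in the soluble fraction of prt1-1 cells, at 326 CPM against 146 CPM.

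In the W303 membrane fraction the log2 ratio of 37 °C to 25 °C was 5.28 (4.73 to 5.95; 38.8-fold) for HSP30, the highest of 5622 genes. YRO2 was at 3.56 (3.28 to 3.87), at rank 7, and MRH1 at −0.94 (−0.99 to −0.89), at rank 302 from the bottom. Of all genes 7.27% passed 2-fold upward, or 10% with library totals, which gave 562 genes upward and 149 downward, against 409 and 243, and a median of 0.16 over all genes. In the soluble fraction YRO2 was at 3.75 (3.29 to 4.29), at rank 31, HSP30 at 2.53 (1.91 to 3.26), at rank 112, and MRH1 at −0.40 (−0.51 to −0.29). There 11.3% of genes passed 2-fold upward, or 24.6% with library totals, which moved the median of all genes to 0.53, against 0.02, and turned MRH1 to 0.11. The transmembrane class had medians of 0.11 in the membrane fraction and 0.15 in the soluble fraction.

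Stress lists chosen beside the 3 genes were higher at 37 °C in W303, as YRO2 and HSP30 were. In the soluble fraction, where 11.3% of all genes were past 2-fold upward and 9.11% downward, 18 of 19 general stress genes were past 2-fold upward at 37 °C (median 3.17), among them HSP12, a small membrane-associated stress protein, at 6.16, and GLK1, a glucokinase, at 2.51. Of 23 Hsf1-dependent chaperones 16 were past 2-fold upward (median 1.59), with the Hsp90 gene HSP82 at 3.26 and its constitutive copy HSC82 at 0.40. Reads of HSP82 and HSC82, a near-identical pair, cannot be assigned securely. Of 7 Haa1-regulated genes 4 were past 2-fold upward (median 1.12). The transporters had 4 genes upward and 4 downward (median −0.41), and PMA1 was at −0.67, beside −0.40 for MRH1. Both transporter counts are near the shares over all genes, and with library totals the median of the transporters was 0.09. In the membrane fraction the medians were 1.08 for the general stress genes and 1.03 for the chaperones, with highest values of 2.31 and 2.08. In that fraction YRO2 at 3.56 and HSP30 at 5.28 were above every gene of both lists. This did not hold in the soluble fraction, where the highest values were 6.16 and 6.22. There YRO2 was at 3.75 and HSP30 at 2.53, below the median of the general stress genes.

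The W303 membrane library at 25 °C was the smallest of all, and it carried stress messages at a higher level than its soluble partner. At 25 °C 13 of 19 general stress genes were past 2-fold higher in the membrane than in the soluble fraction (median 1.47), where 23.3% of all genes were, and HSP12 stood at 743 CPM in the membrane fraction and 44.5 CPM in the soluble fraction. At 37 °C 1 of 19 was (median −0.42), where 19.6% of genes were. The part of this difference in the heat ratios of YRO2 and HSP30 was not tested.

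In prt1-1 cells the heat ratio depended on the fraction. YRO2 had 84.8 CPM at 37 °C and 13.7 CPM at 25 °C in the membrane fraction, and 119 CPM at 37 °C and 2.38 CPM at 25 °C in the soluble fraction. HSP30 had 26.3 CPM at 37 °C and 4.34 CPM at 25 °C in the membrane fraction, and 65.6 CPM at 37 °C and 1.35 CPM at 25 °C in the soluble fraction, the last from 13 counts. MRH1 had 198 CPM at 37 °C and 1107 CPM at 25 °C in the membrane fraction, and 326 CPM at 37 °C and 146 CPM at 25 °C in the soluble fraction. At 37 °C each gene was therefore higher in the soluble than in the membrane fraction, which was the case in no other pair of membrane and soluble libraries.

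The log2 ratios of 37 °C to 25 °C in the soluble fraction of prt1-1 cells were 5.61 (5.05 to 6.30) for YRO2 and 5.55 (4.83 to 6.52) for HSP30, at ranks 19 and 21, and 1.16 (1.07 to 1.24) for MRH1. All 3 passed 2-fold upward, as 28.8% of genes did, or 45.6% with library totals, which moved the median of all genes to 0.85, against 0.24. In the membrane fraction YRO2 was at 2.62 (2.33 to 2.94), HSP30 at 2.58 (2.06 to 3.18) and MRH1 at −2.48 (−2.56 to −2.41). There 18.6% of genes passed 2-fold upward and 18.4% downward, or 32.2% and 10.6% with library totals, which moved the median of all genes to 0.48, against −0.03. The class medians were 1.37 in the soluble fraction and −0.71 in the membrane fraction. MRH1 had the same signs as these medians, and YRO2 and HSP30 were above both.

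The stress lists parted in prt1-1 cells. In the soluble fraction 28.8% of all genes were past 2-fold upward and 16.6% downward, or 45.6% and 6.55% with library totals. There 18 of 19 general stress genes were again past 2-fold upward (median 3.57), as were 6 of 7 Haa1-regulated genes (median 2.20). Of 23 Hsf1-dependent chaperones 4 were past 2-fold upward and 16 downward (median −1.77), with the Hsp70 gene SSA2 at −5.27 and the Hsp110 gene SSE1 at −4.12. How reads that match more than 1 gene were counted is not described, which may bear on single chaperone values. YRO2 at 5.61 and HSP30 at 5.55 were above every chaperone there, the highest of which was at 3.04, and within the range of the general stress genes, which reached 6.18.

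Membrane enrichment at 37 °C differed in sign between the strains. In prt1-1 cells at 37 °C the log2 ratio of membrane to soluble was −0.72 (−0.80 to −0.64) for MRH1, −0.48 (−0.61 to −0.36) for YRO2 and −1.32 (−1.53 to −1.11) for HSP30. HSP30 alone passed 2-fold downward, as 8.73% of genes did, and the class median was −0.14. In W303 at 37 °C it was 3.52 (3.43 to 3.61) for MRH1, 3.10 (2.96 to 3.24) for YRO2 and 4.66 (4.42 to 4.92) for HSP30. All 3 passed 2-fold upward, as 19.6% of genes did, and HSP30 was at rank 17 of 5622. The class median in W303 at 37 °C was 2.45, so the class differed in sign between the strains as well. Library totals gave 957 genes past 2-fold upward and 707 downward in W303 at 37 °C, against 1100 and 134, with a median of −0.45 over all genes, against −0.10. With 1 library per strain, fraction and temperature, the strain and the library cannot be told apart.

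At 25 °C the strains were alike in the direction of membrane enrichment. In prt1-1 cells the log2 ratio of membrane to soluble was 2.92 (2.84 to 3.01) for MRH1, 2.50 (1.86 to 3.25) for YRO2 and 1.66 (0.72 to 2.74) for HSP30, all past 2-fold upward, as 22.6% of genes were. Cytonuclear scaling gave 1486 genes upward and 529 downward there, against 1272 and 769. In W303 it was 4.06 (3.98 to 4.14) for MRH1, 3.29 (2.74 to 3.89) for YRO2 and 1.91 (1.03 to 2.80) for HSP30, all past 2-fold upward as well, as 23.3% of genes were. Cytonuclear scaling gave 1518 genes upward and 165 downward there, against 1310 and 448, and medians over all genes of 0.26 in prt1-1 cells and 0.27 in W303. The order of the 3 genes was the same in both strains. The intervals of YRO2 and HSP30 overlapped in both strains and those of MRH1 and YRO2 in prt1-1 cells, so the order there was not resolved. The intervals cover counting error only, and differences between the genes were not tested. Levels in the membrane fraction at 25 °C were lower in prt1-1 cells than in W303. The log2 ratios were −1.25 (−1.30 to −1.20) for MRH1, −1.48 (−1.90 to −1.07) for YRO2 and −1.08 (−1.88 to −0.24) for HSP30. All 3 passed 2-fold downward, as 9.16% of genes did, and the class median was −0.25.

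The change of membrane enrichment with temperature set the strains apart most for HSP30. In prt1-1 cells the enrichment at 37 °C minus that at 25 °C was −3.64 for MRH1, −2.99 for YRO2 and −2.97 for HSP30, past 2-fold downward for all 3 as for 24.2% of genes, with a class median of −2.08. Cytonuclear scaling gave 595 genes upward and 1540 downward, against 829 and 1360. Among other plasma membrane genes PMA1 was at −3.56 and 23 of 27 transporters were past 2-fold downward (median −2.09). In W303 the change was −0.54 for MRH1, −0.19 for YRO2 and 2.75 for HSP30. HSP30 alone passed 2-fold upward, as 2.4% of genes did, and it stood at rank 5 of all genes. Library totals gave 54 genes upward and 612 downward, against 135 and 330, with a median of −0.34 over all genes, against 0.01. Of the transporters none was past 2-fold upward and 3 were downward in W303 (median −0.10), beside 5.87% of all genes downward. The W303 value of HSP30 rests on 24 and 23 counts at 25 °C.

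Ratios of one gene to another within a library need no scaling between libraries. YRO2 had 4.86 to 8.17 counts per 100 MRH1 counts over the 10 footprint libraries, and 5.90 to 9.92 over the 6 RNA libraries of the tagged BY4741 strain. In prt1-1 and W303 cells it had 33.1 to 44.4 at 37 °C and 1.24 to 2.46 at 25 °C. The heat response was known when the genes were chosen, so these ranges are a description. Ratios of other genes were not set beside them. HSP30 had 0.254 to 0.821 counts per 100 MRH1 counts over the footprint libraries and 0.284 to 0.786 over the BY4741 RNA libraries. In prt1-1 and W303 cells it had 11.9 to 26.2 at 37 °C and 0.346 to 1.53 at 25 °C. BY4741 cells thus had YRO2 to MRH1 ratios above those of the other strains at 25 °C and below those at 37 °C. The labels give no growth temperature for the BY4741 cultures, so strain, tag and temperature cannot be told apart.

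**Figure D5:**
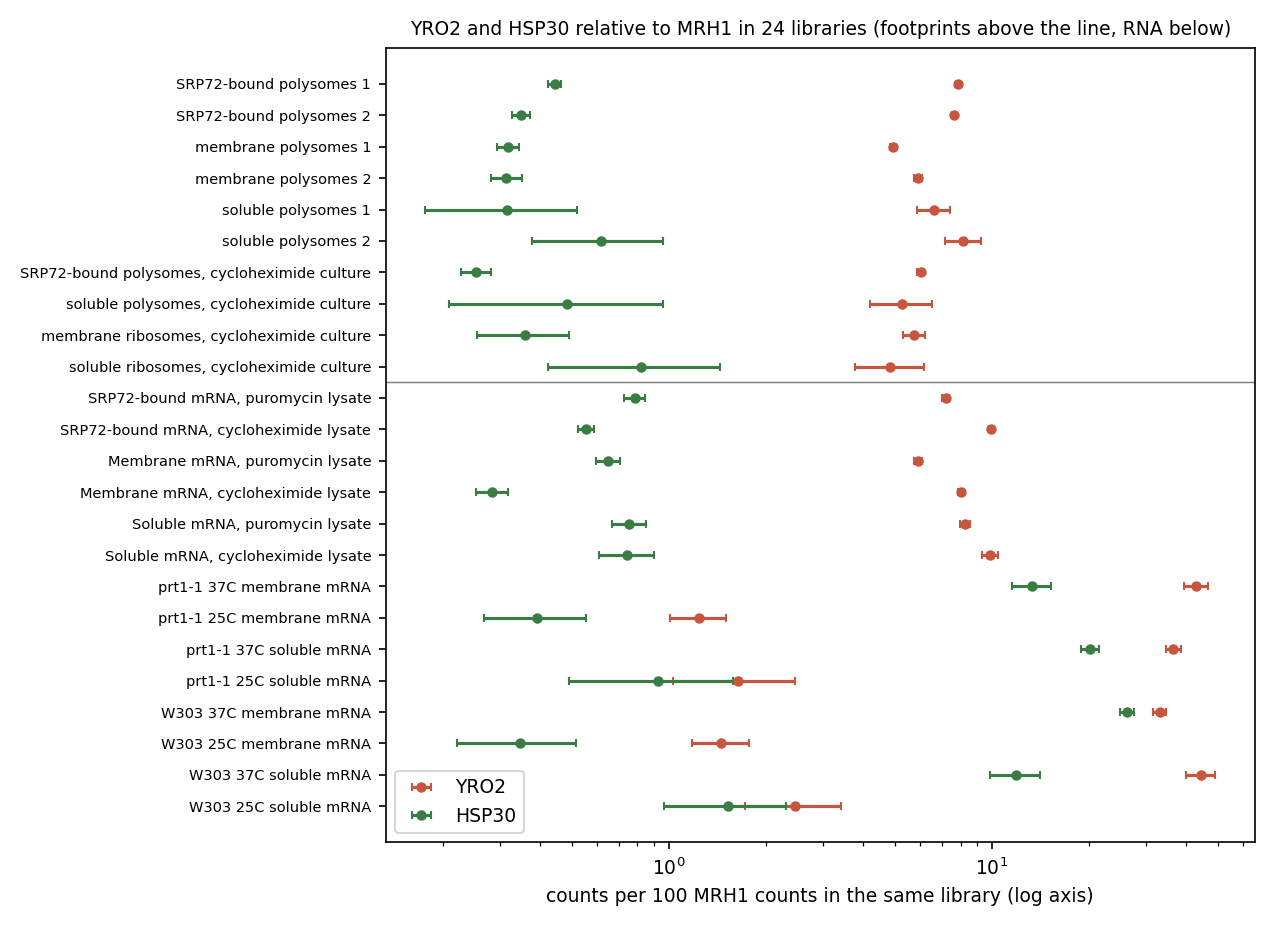
Counts of YRO2 (red) and HSP30 (green) per 100 MRH1 counts in each of the 24 libraries, on a log axis with exact 95% counting intervals; footprint libraries are above the line and RNA libraries below. YRO2 stands at 33.1 to 44.4 in the 4 libraries at 37 °C and at no more than 9.92 in the other 20.

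SRP72-bound polysomes without drug held 7.85 and 7.63 YRO2 counts per 100 MRH1 counts, membrane polysomes 4.93 and 5.91, and soluble polysomes 6.60 and 8.17. The SRP72-bound intervals (7.76 to 7.94 and 7.52 to 7.74) lay above those of the membrane libraries (4.83 to 5.03 and 5.75 to 6.06). Of the soluble intervals the first (5.87 to 7.40) lay below both SRP72-bound ones and the second (7.18 to 9.26) spanned both. These intervals cover counting error only. The 2 replicates did not overlap in SRP72-bound or in membrane polysomes, so the intervals understate the spread between libraries. Differences between the fractions were not tested. YRO2 and MRH1 are paralogs, and no label or header states how reads that match both were counted.

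Genes with the most similar profiles were sought by Pearson's r of log2(CPM + 1) over the 24 libraries, among 5590 genes with a mean of at least 10 counts. These r values describe libraries that share strains, fractions and depth. Nearest to MRH1 were LEM3, a subunit of a phospholipid flippase (r = 0.976), the cell wall proteins SIM1 and ECM33, the amino acid permease TAT1 and the oligosaccharyltransferase subunit OST3 (0.969). Nearest to YRO2 were the sulfite pump SSU1 (0.971), PNS1, the plasma membrane permease AGP2, the vacuolar transporter AVT1 and TVS1 (0.929). Nearest to HSP30 were the ceramidase YPC1 (0.943), GPC1, an enzyme of phosphatidylcholine metabolism, YTP1, YJL163C and YPL264C (0.918). By Spearman's rho 2, 3 and 2 of the 5 genes were again among the nearest 5 to MRH1, YRO2 and HSP30. Among the 3 genes r was 0.874 between MRH1 and YRO2, 0.860 between YRO2 and HSP30 and 0.644 between MRH1 and HSP30, and no one of them was among the nearest 5 of another.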

How the data were processed

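The authors deposited raw counts of reads per open reading frame for 10 footprint and 14 poly(A) RNA libraries, per the file headers, and log2 enrichments of DESeq2-scaled reads, class and codon positions. CASAVA, cutadapt 1.3, Bowtie, TopHat and sacCer3 are named per the submitters' processing notes; multi-mapping reads and strand are not described there. The labels describe 30 samples; 24 were used, and the 6 monosome samples are not analysed here. BY4741 RNA columns without a drug name were assigned to the CHX lysate, since the others name puromycin. Of 5904 frames 5902 matched RefSeq R64, and 3 empty lines were dropped.

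The 6 polysome libraries were fitted in edgeR 4.0.16 (R 4.3.3; TMM, filterByExpr, quasi-likelihood test, Benjamini-Hochberg at 0.05; 3 residual degrees of freedom, common biological coefficient of variation 0.0805), tested on simulated data. Single libraries were compared as log2 ratios of TMM-scaled counts plus 0.5, for genes averaging 10 counts, with exact 95% intervals and a 2-fold threshold and no test. All 3 genes passed both filters; HSP30 passed in footprints with 8 to 20 counts in soluble libraries. Replicate footprint libraries differed by more than counting error (chi-square over degrees of freedom 15.1 to 87.9; Pearson's r at least 0.9946). The 3 genes and the 7 gene lists were chosen with earlier results of these data known. Named list genes are the 3 of each list with the highest mean CPM in a comparison, from which the text gives those it needs. Alternatives were DESeq2 1.42.0, other scalings and filters, a replicate block and leaving out each library.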

Additional observations from a re-analysis of the deposited data

Results flagged for a closer look

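The 2 strains had opposite signs for 5 values, with 1 library per group, so the differences were not tested. The transmembrane class also had medians of opposite sign in membrane against soluble mRNA at 37 °C, at −0.14 in prt1-1 and 2.45 in W303. How many of all genes had opposite signs was not counted. Membrane against soluble mRNA at 37 °C was −0.72 in prt1-1 and 3.52 in W303 for MRH1 (a difference of −4.24), −0.48 and 3.10 in prt1-1 and W303 for YRO2 (−3.58), and −1.32 and 4.66 in prt1-1 and W303 for HSP30 (−5.98), all on the log2 scale. The change of membrane enrichment of HSP30, 37 °C minus 25 °C, was −2.97 in prt1-1 and 2.75 in W303 (−5.72). Soluble MRH1 mRNA at 37 °C against 25 °C was 1.16 in prt1-1 and −0.40 in W303 (1.56), and the W303 value turned to 0.11 with library totals.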

How the results depend on the processing

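Under 12 alternative fits of the polysome libraries, the 3 genes kept their direction in all 3 comparisons. On membranes against soluble polysomes their log2 fold changes stayed at 5.02 or more. The soluble libraries also served the SRP comparison known when the genes were chosen, so these fits are no separate check of that choice. Leaving out 1 library at a time gave 5.65 to 6.18 for MRH1, 5.34 to 5.61 for YRO2 and 5.02 to 5.89 for HSP30 on membranes against soluble polysomes. It gave 7.33 to 8.22 for HSP30 in SRP72-bound against soluble polysomes. The lone library of a group was then assumed to vary like the others. Cytonuclear scaling moved MRH1 to 8.27 and YRO2 to 8.35 in SRP72-bound against soluble polysomes. Replicates share only a number (deviations correlated at 0.32, 0.12 and 0.087); a replicate block gave 5.92, 5.48 and 5.47 for MRH1, YRO2 and HSP30 on membranes, and 3905, 4319 and 3317 genes called in the 3 comparisons, against 3726, 4203 and 3151. DESeq2 called 3315, 3912 and 2856. Library totals raised the genes past 2-fold to 3681 in SRP72-bound against soluble polysomes of the CHX culture, against 1802. They gave 4231 in SRP72-bound against soluble mRNA of the CHX lysate, against 2398. In the puromycin change of SRP72 enrichment they gave 3458, against 1788. The TMM factors were 0.621 and 1.21 for SRP72-bound and soluble polysomes of the CHX culture. For SRP72-bound and soluble mRNA of the CHX lysate they were 0.534 and 1.28. What set these factors apart was not tested. Of 264 alternative values of the 3 genes in single libraries, 1 changed sign (soluble MRH1 in W303) and 2 crossed 2-fold, HSP30 in the puromycin change of membrane enrichment (−0.88) and in prt1-1 against W303 membranes at 25 °C (−0.96). Depth limits HSP30 most, with 8 to 39 counts in 9 libraries.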
